A study of Mus musculus with 8 samples.

Results

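The genes described here encode the extracellular enzymes that trim procollagen and crosslink the resulting fibres, in mouse embryonic stem cell cultures with intact or mutant Tbx1. There were 10 such genes among 55487 gene rows of the count table, chosen by name: the enhancer Pcolce, the procollagen proteinases Bmp1, Tll1, Adamts2, Adamts3 and Adamts14, and the lysyl oxidases Lox, Loxl1, Loxl2 and Loxl3. Each name matched exactly 1 row. The parental group held 4 libraries of E14-Tg2a, a mouse embryonic stem cell line, with the genotype label WT. The mutant group held 4 libraries of its derivative 4D, labelled Tbx1-/-. Both lines were harvested on day 6 of a serum-free differentiation towards precardiac mesoderm. Tbx1 encodes a T-box transcription factor whose human counterpart lies in the chromosomal interval deleted in DiGeorge syndrome. All mutant cultures came from 1 line, so that the genotype and other properties of line 4D cannot be told apart. The replicates are described as biological, but nothing says how far apart the cultures were started, so p-values measure the spread between these libraries.

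Fibrillar collagens are secreted as procollagens with globular propeptides at both ends. ADAMTS proteinases of the Adamts2 type remove the amino-terminal propeptide, and the tolloid proteinases Bmp1 and Tll1 remove the carboxy-terminal one. Pcolce has no proteinase activity of its own: it binds the carboxy-terminal propeptide and speeds its removal by tolloid proteinases. Lysyl oxidases are copper enzymes that oxidise lysines of collagen and elastin, after which the fibres crosslink, and tolloid proteinases also release Lox from its proenzyme. The series title concerns septation defects of the cardiac outflow tract and minoxidil, known as a suppressor of lysyl hydroxylase genes, whose enzymes act on collagen lysines before the steps described here. No minoxidil-treated sample is among the 8 libraries.

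RNA was measured by QuantSeq, which reads polyadenylated transcripts at their 3′ ends, so that counts do not grow with transcript length. Counts still depend on how well the gene annotation, which is not given, covers each 3′ end. Comparisons of level between different genes are therefore comparisons of counts obtained, not of exact RNA amounts. The unit of level is CPM, a library's count of a gene after all libraries were brought to one size by the trimmed mean of M values (TMM). Total counts ran from 3803561 to 6293907 per library and did not differ between the lines beyond the spread (p = 0.257 in a two-sided exact permutation test of 4 against 4). The floor of 3 counts corresponded to 0.479 to 0.825 CPM. Tbx1 had 39, 65, 38 and 22 counts in parental libraries 1 to 4 and 3, 0, 1 and 0 in the mutant libraries, which matches the labels. Mutant library 4 stood apart: it held 14850 genes with a count, against 18213 to 19134 in the others. Across genes, its log2 CPM correlated with other libraries at 0.858 to 0.881, while all other pairs lay between 0.920 and 0.945. The tested genes of the set, the ratios of Pcolce and the called genes of the related lists are therefore also given without it. All 12 listed precardiac markers were detected and tested, with a median log2 fold change of -0.69. Gata6 rose, and Tbx1 itself, Fgf10 (25.8 to 11.1 CPM on average) and Foxc1 (46.8 to 22.6 CPM) fell, while Hand1, at 615 ± 32.1 CPM (SD, n = 4) in parental libraries and at 469 ± 84.7 CPM in mutant ones, was not called. Nkx2-5 and Tbx5 were at 0 in mutant library 4 and above 0 in all other libraries. Isl1 also fell when that library was left out, and 7 of the 12 were called with DESeq2 and with limma-voom, against 4 with edgeR. The mutated gene Tbx1 is included each time. Over all 13280 genes tested, edgeR called 1.42%, DESeq2 3.05% and limma-voom 252 genes. The pluripotency gene Pou5f1 had at most 14 counts in any library.

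A promoter sequence is shown for Pcolce, since it was the gene of the set that passed the test and the mutated gene encodes a DNA-binding factor. The stretch of 167 bases runs from 250 to 84 bases before the RefSeq start site on GRCm38.p6, chr5:137611488-137611654 on the minus strand. The 83 bases next to that start site are left out because they fall in an exon of GENCODE M21, whose Pcolce gene starts farther upstream, so that the stretch lies in an intron of that gene.
Pcolce upstream: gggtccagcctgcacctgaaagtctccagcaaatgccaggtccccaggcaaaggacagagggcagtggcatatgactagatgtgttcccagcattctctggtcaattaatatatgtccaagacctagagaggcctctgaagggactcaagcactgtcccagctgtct
It is in lower case throughout because no searched motif falls in the printed bases. The Pcolce window does hold a GC box, CCGCCC, at 60 bases before the start site, in the part left out. A T-box core, GGTGTGA on either strand, was searched in the 250 bases before each start site of the RefSeq promoter table. It occurred in 0 of the 5 genes of the set that the table holds (Pcolce, Tll1, Adamts2, Adamts3 and Adamts14) and in 3.33% of 32851 promoter windows. A GC box, GGGCGG on either strand, occurred in 4 of the 5 and in 32.7% of all windows. TATAAA occurred in 0 of the 5 and in 12.4% of all windows, and CCAAT, in either orientation, in 1 of the 5 (Tll1) and in 33.8%. GC content was 58.8% for Pcolce, 43.2% for Tll1 and 76.4% to 78.0% for the Adamts genes, against a median of 52.4%. These matches describe letters in the windows, and the counts of 3′ ends measure nothing there.

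Of the 10 genes, 6 passed the filter on low counts and entered the comparison, and 1 of these 6, Pcolce, was higher in the mutant line at a Benjamini-Hochberg adjusted p below 0.05 by the quasi-likelihood test of edgeR. None of the 6 was lower. Over all 13280 genes tested, 1.42% were called in either direction, 0.745% as higher and 0.67% as lower. The median log2 fold change of the 6 genes was 0.27, against 0.00 for all tested genes, and it covers only the genes that passed the filter. The other 4 genes, Tll1, Adamts14, Lox and Loxl3, had at most 33 counts in any library. A higher Pcolce RNA level was thus the measured difference in this set, with Bmp1 next in order of p.

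**Figure D1:**
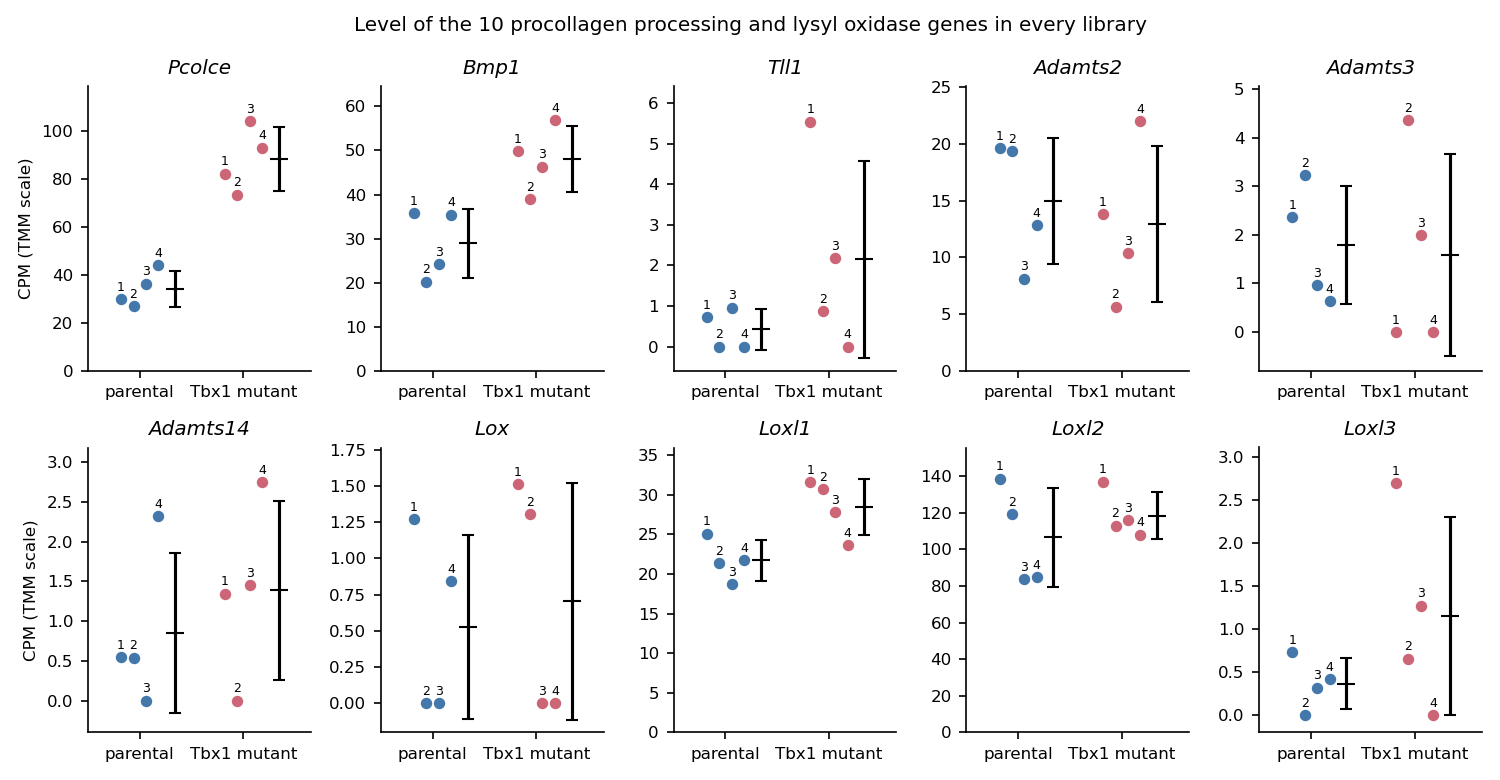
CPM on the TMM scale (vertical axis, a separate linear scale per gene) of the 10 genes in parental (blue) and Tbx1 mutant (red) libraries, with the library number above each point and the mean and SD (n = 4) as a black bar. All mutant points lie above all parental points for Pcolce and Bmp1, and the lines overlap for the other 8 genes.

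Pcolce (ENSMUSG00000029718.14) codes for protein and lies on chromosome 5 from 137605103 to 137613784, minus strand (GRCm38, GENCODE M21). Its level was 30.0, 26.9, 36.4 and 44.0 CPM in parental libraries 1 to 4 and 82.3, 73.7, 104 and 93.2 CPM in mutant libraries 1 to 4. The lowest mutant library thus lay well above the highest parental library. Means were 34.3 ± 7.58 CPM in the parental line and 88.4 ± 13.3 CPM in the mutant line (SD, n = 4), from 752 and 1741 counts in all. The log2 fold change was 1.37 ± 0.18 (SE), a 2.58-fold rise with a 95% interval of 1.99 to 3.34. At an edgeR adjusted p of 0.00035 it ranked 17th among the tested genes. Without mutant library 4 the log2 fold change was 1.34 with an adjusted p of 0.000486. Pcolce shares 112 exon bases with Fbxo24 on its own strand, but these lie 8570 bases from the 3′ end of Pcolce, and Fbxo24 had at most 5 counts in any library.

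Bmp1 (ENSMUSG00000022098.10, chromosome 14, 70474558 to 70520234, minus strand) encodes the carboxy-terminal proteinase that Pcolce enhances, and also cleaves the BMP antagonist chordin. Parental libraries 1 to 4 had 35.8, 20.3, 24.3 and 35.4 CPM, and mutant libraries 1 to 4 had 49.9, 39.0, 46.3 and 56.9 CPM. The lines did not overlap, although the highest parental library, at 35.8 CPM, came close to the lowest mutant library, at 39.0 CPM. Such a separation with the mutant line above was found for 3.49% of all tested genes. Means were 28.9 ± 7.88 and 48.0 ± 7.45 CPM (SD, n = 4), with a log2 fold change of 0.73 ± 0.21 (SE) and a 95% interval of 1.22-fold to 2.26-fold. The edgeR adjusted p of 0.108 missed the threshold. It passed with DESeq2, at 0.0484, where 3.05% of all genes were called, and without a filter on low counts, at 0.0377, where 1.64% of genes were called. Leaving out single libraries gave adjusted p-values of 0.0883 to 0.367, the highest without parental library 2, and 0.199 without mutant library 4.

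Tll1 (ENSMUSG00000053626.5, chromosome 8, 64014931 to 64206271, minus strand), a second tolloid proteinase with roles close to those of Bmp1, was near the floor. Its counts were 4, 0, 6 and 0 in parental libraries and 33, 4, 12 and 0 in mutant libraries. Mutant library 1 alone held 33 of the 49 mutant counts, and the lines overlapped at 0. Tll1 did not pass the filter, and in the fit without one its adjusted p was 0.495.

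The amino-terminal proteinases gave no call. Adamts2 (ENSMUSG00000036545.9, chromosome 11, 50602084 to 50807573, plus strand), the main proteinase for the amino-terminal propeptide of type I procollagen, had 19.6, 19.4, 8.14 and 12.9 CPM in the parental libraries and 13.8, 5.67, 10.4 and 21.99 CPM in the mutant libraries. Both the lowest and the highest value were mutant, so that the parental range lay inside the mutant range. The lines differed by -0.22 ± 0.39 (SE) on the log2 scale, with an edgeR adjusted p of 0.885, and the interval of 0.489-fold to 1.505-fold leaves room for changes in either direction. The difference was -0.59 without mutant library 4 (adjusted p 0.609). Adamts3 (ENSMUSG00000043635.12, chromosome 5, 89677087 to 89883334, minus strand), which also processes the lymphatic growth factor Vegfc, had 13, 18, 6 and 3 counts in parental and 0, 20, 11 and 0 in mutant libraries. The sign of its fitted change turned without mutant library 4, to 0.21 on the log2 scale (adjusted p 0.969). Adamts14 (ENSMUSG00000059901.12, chromosome 10, 61197112 to 61273438, minus strand), the third enzyme of this group, had 3, 3, 0 and 11 counts in parental and 8, 0, 8 and 10 in mutant libraries. For Adamts3 and Adamts14 values at 0 occurred beside values above the floor within the same line, and no change could be detected with so few reads.

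Among the lysyl oxidases, Loxl2 had by far the highest CPM. Loxl2 (ENSMUSG00000034205.16, chromosome 14, 69609068 to 69695834, plus strand) encodes an oxidase known to act on type IV collagen. It had 139, 119, 83.8 and 84.7 CPM in parental libraries 1 to 4 and 137, 113, 116 and 108 CPM in mutant libraries 1 to 4. All mutant values lay within the parental range. Means were 107 ± 26.9 and 118 ± 12.7 CPM (SD, n = 4), and the lines differed by 0.15 ± 0.16 (SE) on the log2 scale, with an edgeR adjusted p of 0.773. At 2353 parental and 2365 mutant counts this was the gene of the set with the most reads, and its 95% interval of 0.882-fold to 1.40-fold excludes a change as large as that of Pcolce. The difference was 0.19 without mutant library 4 (adjusted p 0.735).

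Loxl1 (ENSMUSG00000032334.10, chromosome 9, 58287738 to 58313186, minus strand), an oxidase known for its part in elastic fibres, had 25.1, 21.3, 18.7 and 21.7 CPM in the parental libraries and 31.6, 30.7, 27.8 and 23.6 CPM in the mutant libraries. Mutant libraries 1 to 3 lay above every parental library, whereas mutant library 4 fell inside the parental range. The lines differed by 0.39 ± 0.21 (SE) on the log2 scale, at an edgeR adjusted p of 0.503 and an interval of 0.963-fold to 1.79-fold. Without mutant library 4 it was 0.47, with an adjusted p of 0.400. The founding enzyme of the family, Lox (ENSMUSG00000024529.14, chromosome 18, 52516067 to 52529867, minus strand), was close to undetected, with 7, 0, 0 and 4 counts in parental and 9, 6, 0 and 0 in mutant libraries. Loxl3 (ENSMUSG00000000693.10, chromosome 6, 83034173 to 83052562, plus strand), a relative of Loxl2, had 4, 0, 2 and 2 counts in parental and 16, 3, 7 and 0 in mutant libraries. The lines overlapped for Lox and Loxl3, and 4 of 8 and 2 of 8 libraries were at 0. The 3′ end of Loxl3 overlaps Htra2 on the opposite strand, and the counts rest on the stranded counting stated in the name of the deposited table.

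The summed level of the 4 lysyl oxidases was 166, 140, 103 and 108 CPM in the parental libraries and 173, 146, 145 and 132 CPM in the mutant libraries, so that mutant libraries 2 to 4 lay inside the parental range. Loxl2 made up 82.2% ± 2.69 of that sum in the parental and 79.7% ± 1.86 in the mutant line, and Loxl1 17.2% ± 2.44 and 19.1% ± 1.41 (SD, n = 4). Lox and Loxl3 each stayed at or below 1.56% of the sum in every library. The summed level of the 5 proteinases was 59.1, 43.4, 34.3 and 51.2 CPM in the parental libraries and 70.6, 49.9, 62.3 and 81.6 CPM in the mutant libraries. Mutant library 2 lay within the parental range. Bmp1 was the largest component in every library, with 61.8% ± 10.99 of the sum in the parental and 73.2% ± 3.85 in the mutant line, and Adamts2 followed with 31.7% ± 9.60 and 18.6% ± 6.50 (SD, n = 4). No test was made on these sums or shares.

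**Figure D2:**
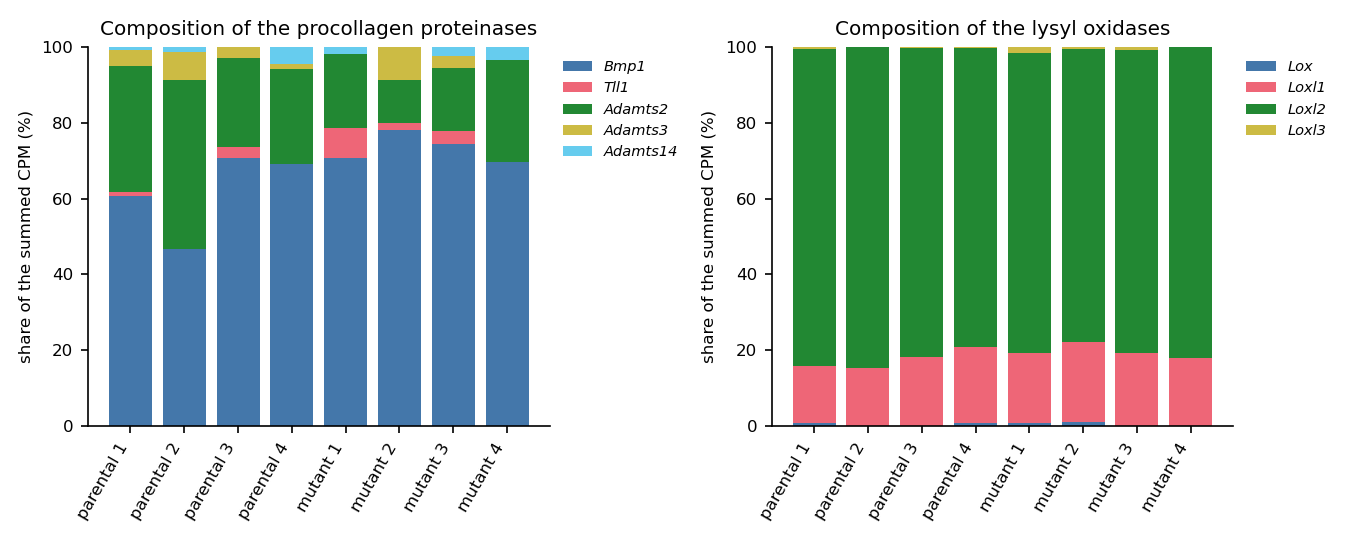
Share of the summed CPM (vertical axis, percent) contributed by each procollagen proteinase (left) and each lysyl oxidase (right) in the 8 libraries. Bmp1 takes 46.7% to 78.2% of the proteinase sum, and Loxl2 takes 77.5% to 84.8% of the lysyl oxidase sum.

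In order of level, parental cultures had Loxl2, Pcolce, Bmp1, Loxl1 and Adamts2, followed by the other 5 genes below 2 CPM on average. Loxl2 lay above Pcolce without overlap, Adamts2 lay above Adamts3 without overlap, and the neighbours between Pcolce and Adamts2 overlapped. The order of the leading 5 was the same in the mutant line, but there each neighbour was separated from the next: Loxl2 did not overlap Pcolce, Pcolce did not overlap Bmp1, Bmp1 did not overlap Loxl1, and Loxl1 did not overlap Adamts2. The coefficient of variation between libraries was 22.1% in parental and 15.0% in mutant libraries for Pcolce, and 12.1% and 12.6% for Loxl1.

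The comparison of Pcolce with its enzyme partner and its substrates asked whether the change of Pcolce differed from theirs. The log2 ratio of Pcolce to Bmp1 was -0.25, 0.40, 0.58 and 0.31 in parental and 0.72, 0.91, 1.16 and 0.71 in mutant libraries. The lines did not overlap, and the ratio was 1.53-fold higher in the mutant line. Relative to Col1a1, which encodes the alpha 1 chain of type I procollagen, the log2 ratio was -3.44, -3.41, -2.40 and -2.01 in parental and -1.91, -1.77, -1.11 and -1.58 in mutant libraries, again without overlap and 2.33-fold higher in the mutant line. Each of these ratios had a two-sided exact permutation p of 0.0286, the smallest that 4 against 4 libraries allow, and 0.0571 after Benjamini-Hochberg adjustment over the 4 ratios computed, above the threshold. As only these ratios reached that smallest p, their adjusted value could not have been lower. Relative to Col1a2 the ratio differed by 0.40 on the log2 scale (exact permutation p = 0.371), and relative to Col3a1 by -0.91 (exact permutation p = 0.114), and the lines overlapped for both. Leaving out single libraries moved the difference for Col1a2 between 0.20, without parental library 1, and 0.63, without parental library 4 (exact permutation, adjusted p 0.114 to 0.771). Without mutant library 4 the differences were 0.67 for Bmp1, 1.22 for Col1a1, 0.39 for Col1a2 and -0.83 for Col3a1.

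**Figure D3:**
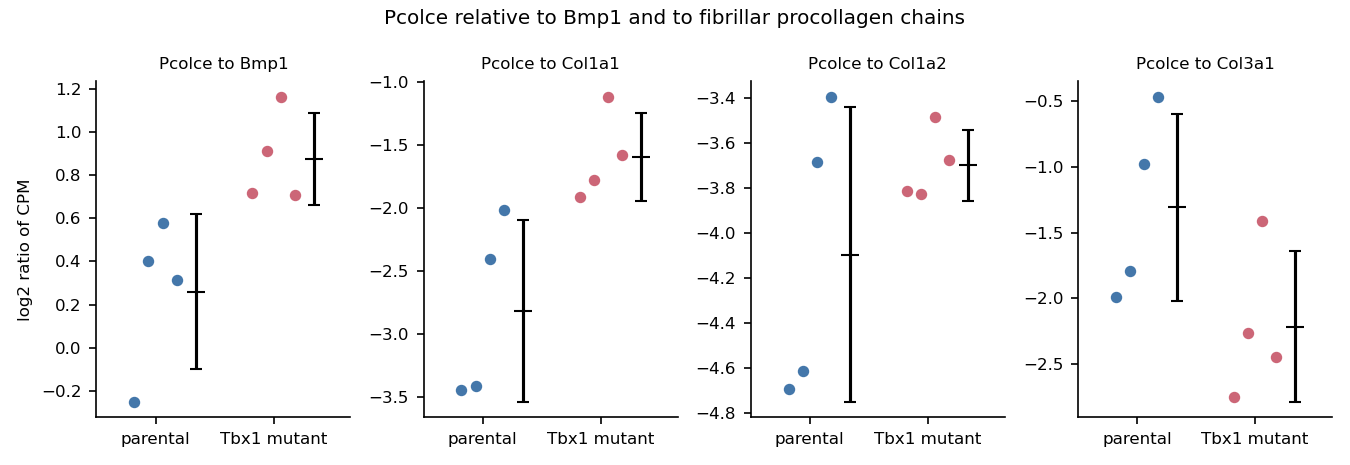
Log2 ratio of Pcolce CPM to the CPM of Bmp1, Col1a1, Col1a2 and Col3a1 (vertical axes, a separate scale per panel) in parental (blue) and Tbx1 mutant (red) libraries, with mean and SD (n = 4). The lines separate for the ratios to Bmp1 and Col1a1 and overlap for those to Col1a2 and Col3a1.

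Substrates of these enzymes were followed in a list of 11 fibrillar procollagen chains, of which 9 were tested. Of the 9, 3 rose and 0 fell, against 0.745% of all tested genes called higher and 0.67% lower. The median log2 fold change was 0.65, against 0.00 for all tested genes. By edgeR 5 of the 9 passed an unadjusted p under 0.05, Col2a1 among them as lower, against 11.9% of all tested genes. DESeq2 called 4 of the 9 and 3.05% of all tested genes. Col3a1, the chain of type III collagen, had 121, 94.4, 72.1 and 60.9 CPM in the parental libraries and 557, 355, 278 and 511 CPM in the mutant libraries. Its log2 fold change of 2.29 ± 0.21 (SE) was the largest of the list. Col1a2 rose by 0.93 ± 0.14 and Col5a1, a chain of the type V collagen that nucleates fibrils, by 0.98 ± 0.15 on the log2 scale. Without mutant library 4 these 3 chains were at 2.19, 0.91 and 0.97, with edgeR adjusted p-values of at most 0.00231. Col1a1 stood at 248 ± 73.4 and 267 ± 35.8 CPM (SD, n = 4) and differed by 0.11 ± 0.17 (SE) on the log2 scale, with an edgeR adjusted p of 0.865. Col5a2 had an edgeR adjusted p of 0.0942 with overlapping lines, and Col2a1 was at -0.78 ± 0.34 on the log2 scale with an adjusted p of 0.365.

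Family relatives outside the set were mostly without a call. Of 26 listed, 16 were tested, 1 rose and 0 fell, against 0.745% of all tested genes called higher and 0.67% lower. Their median log2 fold change was 0.16, against 0.00 for all tested genes. By edgeR at an unadjusted p under 0.05, 6 of the 16 passed, in both directions, against 11.9% of all tested genes. The gene that rose was Adamts1, a proteinase of the proteoglycan versican, with 56.6, 58.5, 39.9 and 41.3 CPM in the parental libraries and 136, 115, 117 and 81.4 CPM in the mutant libraries. Every mutant library lay above every parental library, and Adamts1 rose by 1.20 ± 0.18 (SE) on the log2 scale, at an edgeR adjusted p of 0.00108 (1.32 without mutant library 4). The count of 1 became 2 in 4 alternatives: Adamtsl1 was added without parental library 1 (adjusted p 0.0227), with DESeq2 (0.00389) and without a low-count filter (0.0117), and Adamts15 without mutant library 4 (0.0448). Pcolce2, the second procollagen enhancer, was far below Pcolce at 3.50 ± 1.47 and 6.52 ± 0.53 CPM (SD, n = 4), with an adjusted p of 0.545. Its lowest mutant library, at 5.77 CPM, lay narrowly above its highest parental library, at 5.48 CPM. Such a separation was found for 3.49% of all tested genes. The remaining tolloid and oxidase genes, Tll2 and Loxl4, had at most 6 and 3 counts in any library.

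Other substrates, partners and regulators were examined in 4 further lists. Of 21 other substrates of tolloid proteinases or lysyl oxidases, 10 were tested, 0 rose and 1 fell, against 0.745% and 0.67% of all tested genes. Their median log2 fold change was 0.11, and 2 of the 10 passed an unadjusted edgeR p under 0.05, against 11.9%. Tgfb1, a growth factor whose latent complex tolloid proteinases can release and which Lox is reported to bind, had 32.2, 29.4, 15.3 and 21.1 CPM in the parental libraries and 12.1, 10.5, 9.99 and 7.15 CPM in the mutant libraries. Tgfb1 fell by 1.29 ± 0.29 (SE) on the log2 scale, at an edgeR adjusted p of 0.0330. The call did not hold with limma-voom (0.0677) and when any of parental libraries 1, 2 or 4 or mutant libraries 2, 3 or 4 was left out (0.0512, without mutant library 4, to 0.153). The elastin gene Eln, the other classical substrate of lysyl oxidases, stood at 8.17 ± 4.64 and 9.80 ± 3.38 CPM (SD, n = 4), with an adjusted p of 0.873.

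Among 19 matrix partners, enhancers and inhibitors, 17 were tested, 2 rose and 0 fell, against 0.745% of all tested genes called higher and 0.67% lower. The log2 fold change was positive for 16 of the 17, with a median of 0.28, against 0.00 for all tested genes. By edgeR 4 of the 17 passed an unadjusted p under 0.05, against 11.9% of all tested genes. Sfrp1, a secreted frizzled-related protein, had 57.8, 58.8, 72.1 and 94.0 CPM in the parental libraries and 127, 115, 153 and 154 CPM in the mutant libraries, a log2 fold change of 0.96 ± 0.16 (SE) with an edgeR adjusted p of 0.00356. Postn, which encodes periostin, a matrix protein that binds Bmp1, rose from 18.5 ± 12.4 to 75.2 ± 30.3 CPM (SD, n = 4), a log2 fold change of 2.01 ± 0.38. Its adjusted p of 0.00847 became 0.0515 when parental library 3 was left out. Without mutant library 4, Sfrp1 was at 0.90 and Postn at 2.02 on the log2 scale, and both were called. Sfrp2, a paralogue reported to enhance Bmp1, had 4.17 ± 1.16 and 6.30 ± 1.603 CPM with an adjusted p of 0.715.

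Proprotein convertases and copper transport genes, which serve to activate the proenzymes and to load the oxidases with copper, gave 0 calls among 10 tested of 11 listed. In that list the smallest p-values were those of Slc31a2, at 0.80 ± 0.37 (SE) on the log2 scale with an edgeR adjusted p of 0.398, and of Atp7b, at -1.37 ± 0.82 and 0.557. Furin, a convertase that removes the prodomain of Bmp1, had 75.3 ± 14.8 and 73.05 ± 19.6 CPM (SD, n = 4), and the copper pump Atp7a had 65.0 ± 9.28 and 69.9 ± 20.3 CPM. Lysyl hydroxylases and their partners gave 0 calls among 9 tested of 10 listed. Plod2, the hydroxylase of telopeptide lysines, came closest at a log2 fold change of -0.42 ± 0.18 (edgeR adjusted p 0.346), followed by its partner Fkbp10 at 0.31 ± 0.19 and 0.569. By edgeR at an unadjusted p under 0.05, 11.9% of all tested genes passed, among them Slc31a2 and Plod2 as the only genes of these 2 lists, and DESeq2 and limma-voom called 0 genes in both.

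**Figure D4:**
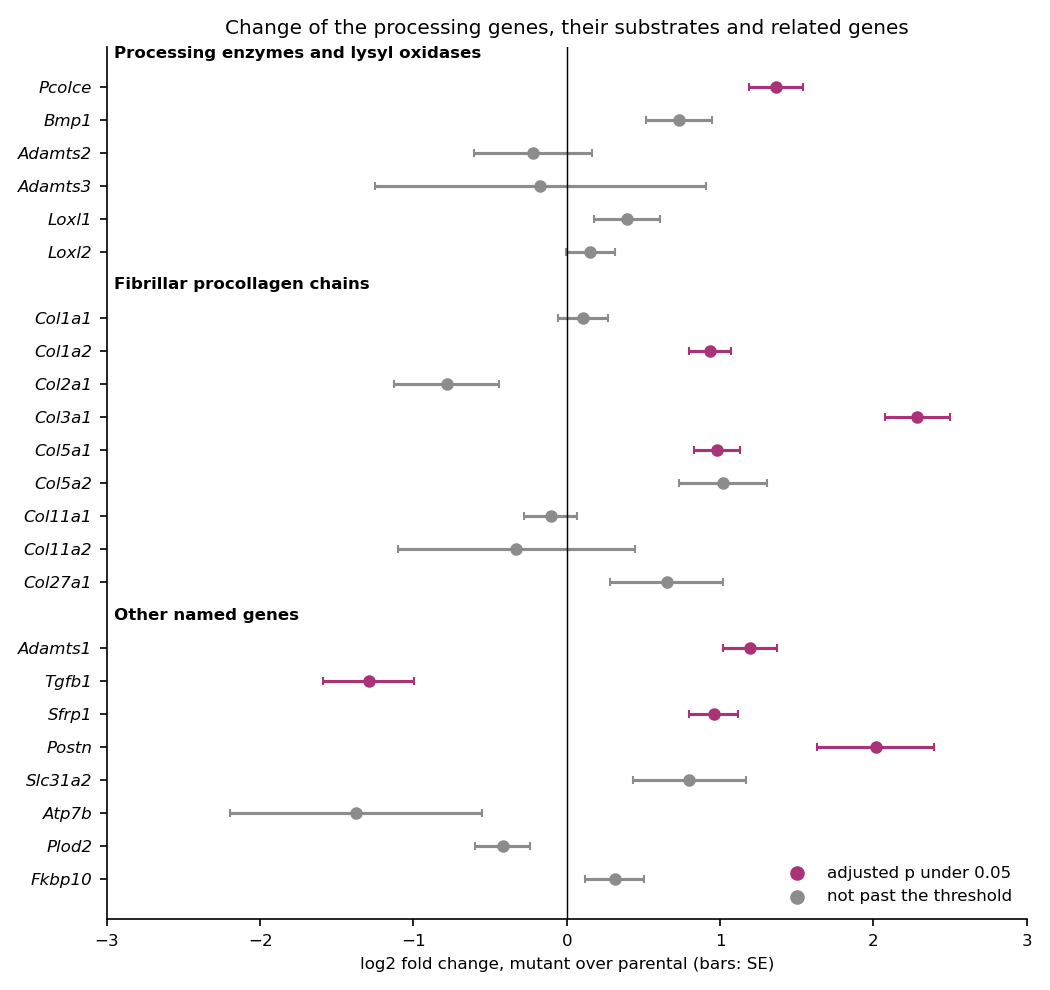
Log2 fold change of mutant over parental libraries (horizontal axis) with SE for the 6 tested processing and lysyl oxidase genes, the 9 tested fibrillar chains and other genes named from the related lists. Purple marks an adjusted p under 0.05: Pcolce, Col1a2, Col3a1, Col5a1, Adamts1, Sfrp1 and Postn lie above 0 and Tgfb1 lies below 0.

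Genes whose libraries followed Pcolce most closely were sought by the root mean square difference of log2 CPM, each gene set relative to its own parental mean, over the 8 libraries and 9021 genes with a mean of at least 10 CPM. The nearest was Twist1, a mesenchymal transcription factor, at 0.18, against a median of 1.03 over all these genes. It had 70.0, 78.9, 101 and 115 CPM in the parental libraries and 212, 158, 232 and 291 CPM in the mutant libraries. The next 4 were Tns1, Ptn, Gm42991 and Tshz1, at 0.25, 0.27, 0.27 and 0.27. Since the measure uses the difference between the lines, a gene had to be higher in the mutant line to come near Pcolce.

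Marker genes of cell types moved between the lines beside Pcolce. Of 12 mesenchyme and fibroblast markers 10 were tested, and Col3a1, Twist1 and Postn rose while 7 were not called. Among the uncalled, Pdgfra stood at 108 ± 14.7 and 96.4 ± 22.04 CPM (SD, n = 4). Prrx1 and Twist2, also uncalled, had log2 fold changes of 0.97 ± 0.25 and 0.51 ± 0.18 (SE). Of the 10 tested, 7 had a positive log2 fold change. By edgeR 5 passed an unadjusted p under 0.05, against 11.9% of all tested genes, and DESeq2 called 3 and limma-voom 4. The summed level of all 12 was 530 to 553 CPM in parental and 916 to 1385 CPM in mutant libraries. Without Col3a1, Twist1 and Postn the sum of the other 9 was 331 to 370 CPM in parental and 360 to 511 CPM in mutant libraries, which overlap. For 9 blood markers, 4 of them globins that rose, the sum was 155 to 212 CPM in parental and 720 to 1029 CPM in mutant libraries. Without the 4 globins the other 5 summed to 35.2 to 43.6 CPM and 55.5 to 79.1 CPM, which do not overlap. All 9 were tested and had a positive log2 fold change, and 7 passed an unadjusted edgeR p under 0.05. For 12 cardiomyocyte markers, 11 tested and 0 called, the sum was 677 to 3933 CPM in parental libraries. Mutant libraries 1 to 4 had 923, 860, 1062 and 133 CPM, so that only mutant library 4 lay below the parental range. For 7 smooth muscle markers, 6 tested and 0 called, the sum was 243 to 1262 CPM and 370 to 507 CPM. All mutant libraries lay inside the parental range there. Of 10 endoderm markers 8 were tested and Foxa2 and Krt18 fell, with a median log2 fold change of -0.33, and the sum was 229 to 428 CPM and 222 to 261 CPM. The precardiac list, with 1 called higher and 3 lower, summed to 1307 to 1681 CPM and 1290.4 to 1465 CPM. Endothelial, neural and pluripotency markers gave 0 calls by edgeR among 8, 6 and 5 tested, and 0, 0 and 1 at an unadjusted p under 0.05. At that unadjusted p, 8 of the 11 tested cardiomyocyte markers and 1 of the 6 smooth muscle markers passed. Of these 11 and 6 tested markers, 0 had a positive log2 fold change, with medians of -1.25 and -0.81. DESeq2 and limma-voom called 0 genes in these 5 lists, and edgeR without mutant library 4 called 1, the smooth muscle regulator Myocd, as lower. All markers of these 9 lists had more than 3 counts over the 8 libraries. In these bulk cultures, more cells of a type and more RNA per cell cannot be told apart, and the part of cell composition in the rise of Pcolce was not tested.

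**Figure D5:**
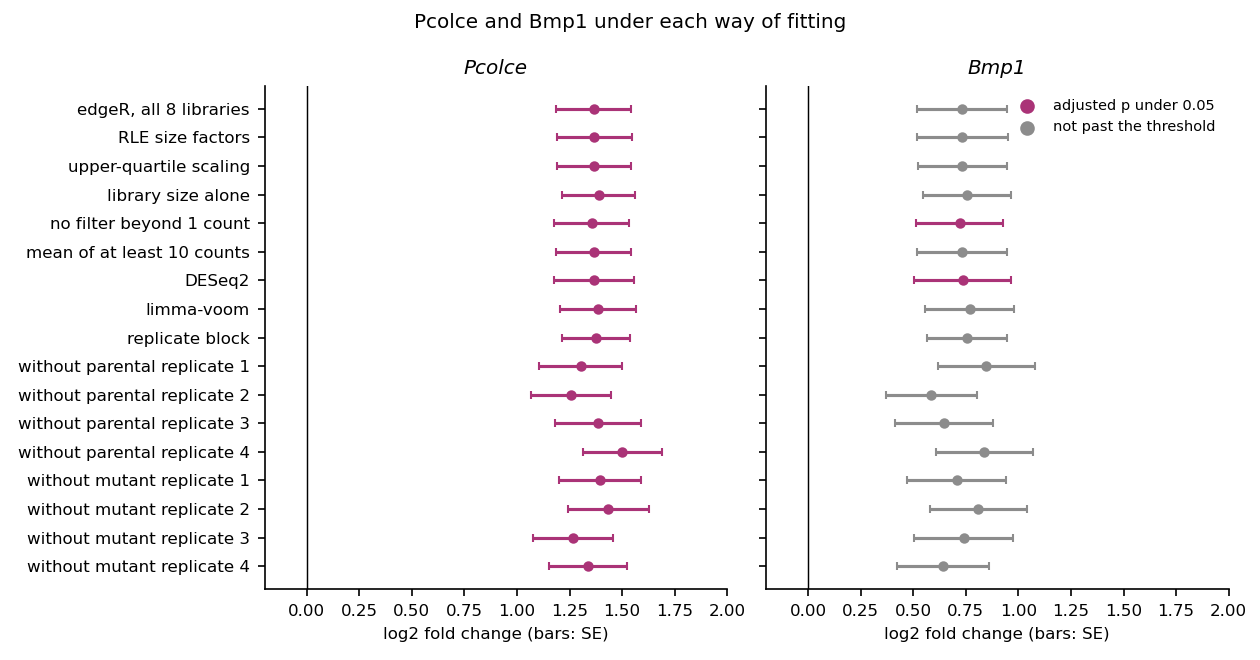
Log2 fold change (horizontal axis) with SE of Pcolce (left) and Bmp1 (right) in the edgeR fit on all 8 libraries, under other scaling, filters and tools, and with each library left out. Pcolce lies between 1.26 and 1.502 with an adjusted p under 0.05 throughout, while Bmp1 lies between 0.59 and 0.85 and passes with DESeq2 and without a low-count filter.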

How the data were processed

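The authors deposited 1 table of raw counts per gene and library, without normalization or pooling of replicates. Alignment with STAR and counting with featureCounts on mm10 are named in the submitters' processing notes, without versions. Strand-specific counting is stated by the table's name. The annotation, filters and any removal of duplicates are not given in the sources used here. Of 55487 identifiers, 55227 matched GENCODE M21 (GRCm38) without their version, and coordinates are those of M21.

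Groups and replicate numbers came from the sample titles. Genes were filtered with filterByExpr, which left 13280 genes with 99.5% of counts, scaled by TMM and compared by the quasi-likelihood test of edgeR 4.0.16 in R 4.3.3, with the line as the only term. P-values were two-sided and adjusted by Benjamini-Hochberg over all tested genes, with a threshold of 0.05. SEs and 95% intervals were derived from the F statistic. The script was tested on simulated counts. Ratios used log2 CPM with a prior count of 2. Floors of 3 counts cover counting error only. No pair of libraries within a line agreed within sampling noise (chi-square per degree of freedom 7.04 to 24.2). Alternatives were RLE, upper-quartile and library-size scaling, other filters, DESeq2 1.42.0, limma-voom (limma 3.58.1), a replicate block and leaving out each library.

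The genes, lists and tests were chosen with earlier results of these data known, so that patterns already seen are not independent support. Named were all 10 genes, Tbx1, the called genes of each related list or otherwise the 2 with the smallest p, and the 5 genes most like Pcolce. Fbxo24, Htra2, Vegfc, Pou5f1, Hand1, Col1a1, Col5a2, Col2a1, Pcolce2, Tll2, Loxl4, Eln, Sfrp2, Furin, Atp7a, Pdgfra, Prrx1, Twist2, Adamtsl1, Adamts15, Adamts20, Nkx2-5, Tbx5, Isl1, Myocd and the called marker genes were named as context after their values were seen. Motifs were searched in RefSeq promoters of GRCm38.p6.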

Additional observations from a re-analysis of the deposited data

How the results depend on the processing

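Pcolce kept its direction and its adjusted p under 0.05 in all 16 alternatives, with log2 fold changes of 1.26 to 1.502 and adjusted p-values of up to 0.00386. The number of genes of the set that were called was 1 in 14 alternatives and 2 with DESeq2 and without a low-count filter, where Bmp1 was added with values of 0.73 and 0.72 on the log2 scale. Without that filter the edgeR adjusted p of Pcolce was also far lower, at 1.2e-11 against 0.00035. Its log2 fold change was nearly the same, at 1.35, and the cause was not tested. Leaving out single libraries gave 1 called gene each time and log2 fold changes of 0.59 to 0.85 for Bmp1, 0.32 to 0.47 for Loxl1, 0.05 to 0.30 for Loxl2, -0.59 to 0.02 for Adamts2 and -1.36 to 0.26 for Adamts3. The sign of Adamts2 changed without mutant library 2 (0.016), and that of Adamts3 without parental library 2 (0.26), mutant library 1 (0.25) or mutant library 4 (0.21); the cause was not tested. Over all genes, 188 were called by edgeR, 405 with DESeq2 and 439 without a low-count filter, which tested 26750 genes, and 103 to 235 when single libraries were left out, falling to 103, 104 and 116 without parental library 2, parental library 3 or mutant library 3. Scaling by library size alone called 100 genes higher and 57 lower, against 99 and 89. Titles give both lines the replicate numbers 1 to 4. Same-numbered libraries deviated from their group means with correlations of -0.033 to 0.102, and differently numbered ones with -0.078 to 0.062. The numbers were not taken as a pairing, but these values do not settle whether they mark shared culture runs. With a replicate block 234 genes were called, Pcolce was at 1.38 (adjusted p 0.000138) and Bmp1 at 0.76 (adjusted p 0.0529). The ratio of Pcolce to Bmp1 had an adjusted sign-flip p of 0.167. With 4 pairs the smallest unadjusted sign-flip p is 0.125, so that test could not pass the threshold and decides nothing about the ratio. Tll1, Adamts14, Lox and Loxl3 had too few counts to pass the filter.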

Other observations

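Within the parental line, Pcolce and its main substrates were not high in the same libraries. Parental libraries 1 and 2 had 329 and 291 CPM of Col1a1 and 786 and 668 CPM of Col1a2, whereas libraries 3 and 4 had 194 and 179 CPM of Col1a1 and 471 and 466 CPM of Col1a2. Pcolce was at 30.0 and 26.9 CPM in libraries 1 and 2 and at 36.4 and 44.0 CPM in libraries 3 and 4. Loxl2 and Adamts2 were, with the type I chains, higher in libraries 1 and 2 than in 3 and 4. Summed cardiomyocyte markers were 3933, 2124, 956 and 677 CPM in the same 4 libraries, and summed mesenchyme markers only 553, 530, 545 and 551 CPM. Libraries of a line have no order, and this pattern over 4 libraries was not tested.

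Adamtsl1, a secreted relative of the Adamts proteinases without a catalytic domain, had 15, 1, 1 and 5 counts in parental and 29, 30, 50 and 39 in mutant libraries. The gene was singled out after its values were seen. It had a log2 fold change of 2.90 ± 0.78 (SE) and an edgeR adjusted p of 0.0780, above the threshold in the fit on all libraries. Adamts20, which is known for its part in melanoblast survival, had 71, 94, 122 and 110 counts in parental and 69, 55, 33 and 7 in mutant libraries, also singled out, at -1.18 ± 0.41 on the log2 scale and an adjusted p of 0.214.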
